A study of Rattus norvegicus with 3 samples.

Results

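Tnfsf11, Cd40lg, Lta and Ltb are the ligand genes of the RANK, CD40 and lymphotoxin systems, Tnfrsf11a, Cd40 and Ltbr are their receptor genes, and Tnfrsf11b encodes a secreted decoy. These 8 genes of the 34034 features measured were taken by name and followed across the cell labels that the authors deposited. Thymi of 8-week-old rats of the inbred Lewis strain gave 2 droplet single-cell RNA libraries. The thymocyte library held T cell precursors released with collagenase D and DNase I. The stromal library was made with Liberase TH and DNase I, and was then enriched, with magnetic beads and a flow sorter, for cells lacking CD45, the surface protein of blood-derived cells. No treatment, mutation or transgene was named for either library, and the number and sex of the animals were not given in the sources used here. Each group had 1 sample, so differences could not be tested against a spread between samples, and p-values are absent.

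The 3 systems belong to the tumour necrosis factor family and carry signals between developing T cells and thymic stroma. RANK ligand, the product of Tnfsf11, and CD40 ligand, the product of Cd40lg, bind RANK and CD40 on medullary epithelium, and these signals are known from mouse genetics to drive the growth of that epithelium and the appearance of cells that carry the regulator Aire. Lymphotoxin alpha and lymphotoxin beta form a membrane complex that binds the lymphotoxin beta receptor on epithelium and fibroblasts. Osteoprotegerin, the product of Tnfrsf11b, binds RANK ligand and keeps it from its receptor. The receptors act through TRAF adaptors on NF-kB, whose non-canonical branch uses the products of Map3k14, Nfkb2 and Relb.

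The authors' annotation covered 13226 of 16160 stromal barcodes and 8546 of 8574 thymocyte barcodes. Annotated stromal cells held 131624350 unique molecular identifiers (UMIs, the count of distinct RNA molecules captured), 9087.5 per cell in the median, and annotated cells of the thymocyte library 64440495, 3994 per cell. Of the barcode sequences, 38 occurred in both libraries. Levels are in CPM, the UMIs of a gene per 1000000 UMIs of a label, with exact Poisson intervals. Shares of cells have exact Clopper-Pearson intervals, and the bounds given in parentheses are 95% intervals that cover counting error only. Levels are given for labels of at least 20 cells.

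Label names are the authors', are not spelled out in the files and are read here in their usual sense. In thymocytes, DN (double negative), DP-P and DP (double positive, with both coreceptors) precede selection, and DP-sig and the immature, AgoSel, Treg (regulatory) and mature CD4 and CD8 labels follow it. The 10 thymocyte markers summed to between 3857 CPM (Mature cycling T) and 13135 CPM (DP) in these labels and to 1360 CPM in B+myeloid. In stroma, cTEC and mTEC are cortical and medullary epithelium, TMC1 to TMC4 and capFb are the fibroblast labels, and aEC, capEC and vEC are endothelium. The 5 fibroblast markers summed to between 8101 CPM (TMC4) and 46331 CPM (capFb) in the fibroblast labels. The 6 epithelial markers summed to 4957 CPM in cTEC, 6281 CPM in mTEC1, 6515 CPM in mTEC-prol and 3829 CPM in mTEC2, and the 4 endothelial markers to between 2158 CPM and 3053 CPM in the endothelial labels. The 4 cortical markers were higher in cTEC (1676 CPM) than in mTEC1 (264 CPM), whereas the 4 medullary markers, which include the broadly used keratin gene Krt14, were as high in cTEC (4148 CPM) as in mTEC1 (3687 CPM). Labels also carried genes of other cells. The fibroblast markers summed to 11987 CPM in stromal-library cells labelled Thymocyte, 7570 CPM in those labelled B cell and 29264 CPM in the label aaTEC2, whose epithelial markers reached 1073 CPM. The myeloid marker C1qa was at 0 in the stromal label Myeloid, and Ptprc, the gene of CD45, was detected in that label despite the sort.

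Sequences upstream of the transcription start were available from RefSeq (assembly GRCr8) for 4 of the 8 genes, while the libraries were aligned to mRatBN7.2 per the submitters' processing notes. They are shown because levels of the ligand genes differed between stages of thymocyte development, and Ltbr is given as the broadly detected receptor gene. Each run holds the 250 bases before the start, 5′ to 3′ on the gene's strand. Capitals mark a TATA box (TATAAA on either strand), an NF-kB consensus or a GC box (GGGCGG on either strand). Tnfsf11 lies at chr15:60114480-60114729 on the minus strand, Lta at chr20:3623277-3623526 on the plus strand, Ltb at chr20:3634055-3634304 on the minus strand and Ltbr at chr4:159801517-159801766 on the minus strand.
Tnfsf11: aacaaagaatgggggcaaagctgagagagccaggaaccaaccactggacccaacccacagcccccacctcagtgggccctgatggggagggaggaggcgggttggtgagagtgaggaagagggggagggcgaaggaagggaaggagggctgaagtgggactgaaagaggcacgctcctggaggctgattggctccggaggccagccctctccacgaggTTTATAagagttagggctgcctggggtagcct
Lta: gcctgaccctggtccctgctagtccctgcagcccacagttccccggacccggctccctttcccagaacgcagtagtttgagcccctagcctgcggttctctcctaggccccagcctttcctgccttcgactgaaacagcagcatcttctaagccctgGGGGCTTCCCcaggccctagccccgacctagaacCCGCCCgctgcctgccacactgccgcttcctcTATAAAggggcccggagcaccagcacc
Ltb: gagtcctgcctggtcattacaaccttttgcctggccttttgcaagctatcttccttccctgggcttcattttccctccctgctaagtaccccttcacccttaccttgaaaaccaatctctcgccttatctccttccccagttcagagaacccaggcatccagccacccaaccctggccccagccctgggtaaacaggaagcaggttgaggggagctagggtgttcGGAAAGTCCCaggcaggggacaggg
Ltbr: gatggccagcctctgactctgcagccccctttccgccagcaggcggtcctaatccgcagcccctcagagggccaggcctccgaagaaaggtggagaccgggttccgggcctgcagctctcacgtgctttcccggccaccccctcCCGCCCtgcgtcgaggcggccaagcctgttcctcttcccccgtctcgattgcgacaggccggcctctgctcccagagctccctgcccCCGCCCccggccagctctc
The NF-kB consensus, searched on both strands, was present in Lta (from -93 to -84) and in Ltb (from -25 to -16), and in 3.54% of 33465 promoters of the same length. In Lta it overlapped a match to the ETS core GGAAG, found in 63.3% of promoters, and in Ltb a match to the NFAT core GGAAA, found in 56.9%. A TATA box was present in Tnfsf11 (from -32 to -27) and in Lta (from -27 to -22), against 12.9% of promoters. The GC box was found once in Lta and at 2 places in Ltbr, against 30.5% of promoters, and TGANTCA, the AP-1 motif present in 6.34% of promoters, was in none of the 4, nor was the cyclic AMP element, present in 1.59%. The ratio of observed to chance CpG dinucleotides was 0.620 in Ltbr, 0.421 in Lta, 0.230 in Tnfsf11 and 0.106 in Ltb, against a median of 0.383 over all promoters. A match is a description of the letters only. In the RefSeq table Tnf, the tumour necrosis factor gene, lies between Lta and Ltb, and no annotated gene overlapped any of the 8.

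The first comparison asked which thymocytes carried the ligand transcripts. All 4 ligand genes were higher in positively selected thymocytes than before selection. The selected pool held the 1470 cells of DP-sig and every later alpha-beta label, and the preselection pool held 6453 cells labelled DN, DP-P or DP. Tnfsf11 stood at 44.6 CPM (502 UMIs) in the selected pool and 1.24 CPM (58 UMIs) before selection, a ratio of 36.1 (27.5 to 48.2). Cd40lg stood at 66.3 CPM (746 UMIs) against 0.384 CPM (18 UMIs), a ratio of 173 (109 to 293). Lta stood at 6.49 CPM (73 UMIs) against 0.256 CPM (12 UMIs), a ratio of 25.4 (13.7 to 51.3). Ltb was the exception in size, at 189 CPM against 70.8 CPM, a ratio of 2.67 (2.53 to 2.82).

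With a gene counted as past the fold at a ratio of at least 2 or at most 0.5 on at least 20 UMIs over both pools, 4 of the 4 ligand genes were past it upward, against 10.6% of the 14665 genes tested, and 0 downward, against 14.2%. The median log2 ratio was 4.92 over the ligand genes and -0.07 over all genes tested. The size of these ratios moved with what was pooled. With DP alone as the preselection pool, an alternative chosen after seeing the data, the ratio was 121 for Tnfsf11, 314 for Cd40lg and 1.53 for Ltb. With the authors' initial clusters in place of the projected labels, it was 15.5 for Tnfsf11, 29.2 for Cd40lg and 2.41 for Ltb. The Ltb ratio was under 2 against DP alone, with each cell weighted equally (1.57) and with cells thinned to 1000 UMIs (1.54). DN and DP-P cells had medians of 23190 and 15439 UMIs, and DP cells 3205.5.

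Tnfsf11 was low in the early labels and detected in every selected label of at least 20 cells. It was at 2.03 CPM in DN, 1.70 CPM in DP-P and 0.370 CPM in DP. In the 325 cells of Pre DP-sig it was not detected, which allows up to 2.50 CPM at 3 UMIs. DP-sig reached 9.31 CPM (4.81 to 16.3). Among CD4 labels it was 23.5 CPM in Immature CD4-1, 69.9 CPM (52.9 to 90.5) in Immature CD4-2, 60.0 CPM in Mature CD4-1 and 50.2 CPM in Mature CD4-2. The CD8 labels ran from 15.2 CPM in Immature CD8-1 through 37.0 CPM in Immature CD8-2 and 42.2 CPM in Mature CD8-1 to 72.5 CPM (48.9 to 103) in the 27 cells of Mature CD8-2. In both lineages the first immature label was the lowest. The highest levels were in Pre-Treg at 98.4 CPM (71.5 to 132, 44 UMIs in 20 of 55 cells) and AgoSel1 at 79.1 CPM (55.1 to 110). AgoSel2 stood at 18.6 CPM (9.93 to 31.9), below AgoSel1 with no overlap of the intervals. Treg stood at 37.9 CPM, Mature cycling T at 70.9 CPM and intCD4 at 38.2 CPM. Neighbours in this order did not differ beyond counting error from Pre-Treg down to Mature CD4-2. Outside the alpha-beta path, gdT cells stood at 9.18 CPM and the label B+myeloid at 10.0 CPM.

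Cd40lg, whose product licenses antigen-presenting cells, was highest in the CD4 labels. It was 83.4 CPM (64.2 to 106) in Immature CD4-1, 141 CPM (116 to 169) in Immature CD4-2, 155 CPM (131 to 181, 157 UMIs) in Mature CD4-1 and 103 CPM (85.9 to 122) in Mature CD4-2. A UMI was found in 54.5% of Mature CD4-1 cells (median 7964 UMIs), in 0.0769% of DP cells (median 3205.5 UMIs) and in 0 of 128 gdT cells (median 19803.5 UMIs), which allows a share of up to 2.34% there at 3 cells. DP-sig stood at 3.88 CPM on 5 UMIs. The CD8 labels divided: Immature CD8-1 was at 6.10 CPM and Mature CD8-1 at 8.44 CPM, Immature CD8-2 at 37.0 CPM and Mature CD8-2 at 116 CPM (85.5 to 154, 48 UMIs). Mature CD8-2 thus lay among the CD4 labels and more than 10 times above Mature CD8-1. Pre-Treg stood at 64.9 CPM, AgoSel1 at 38.4 CPM, AgoSel2 at 30.1 CPM and Treg at 25.2 CPM, below the mature CD4 labels, although the interval of Pre-Treg (43.5 to 93.2) overlapped that of Mature CD4-2. Mature cycling T stood at 110 CPM (88.7 to 135) and intCD4 at 48.6 CPM. In B+myeloid it was 0.837 CPM on 2 UMIs of 1 cell.

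Lta was the sparsest of the ligand genes, with 89 UMIs in the whole thymocyte library. It was highest in intCD4 at 38.2 CPM (19.1 to 68.4) on 11 UMIs, of which 6 came from 1 cell, and in Treg at 28.4 CPM (13.0 to 53.9) on 9 UMIs. Pre-Treg stood at 13.4 CPM and AgoSel2 at 12.9 CPM, and the 4 CD4 labels ranged from 2.45 CPM to 6.89 CPM. DP stood at 0.211 CPM on 4 UMIs. Neighbours in the order of the selected labels did not differ beyond counting error at this depth.

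Ltb was detected throughout. DN was the lowest label at 23.6 CPM (20.8 to 26.7), followed by DP-P at 41.7 CPM and Immature CD8-1 at 42.7 CPM, while DP stood at 124 CPM (119 to 129) and Pre DP-sig at 126 CPM. The course was not monotonic. DP-sig stood at 107 CPM (90.0 to 127) and Immature CD4-1 at 70.4 CPM (52.9 to 91.8), below DP, and Mature CD4-1 at 210 CPM and Mature CD4-2 at 295 CPM (266 to 327), above it. Immature CD8-2 stood at 177 CPM, Mature CD8-1 at 181 CPM and Mature CD8-2 at 234 CPM. Treg was the highest label at 445 CPM (375 to 525, 141 UMIs in 29 of 37 cells), 1.37 times (1.08 to 1.74) Pre-Treg at 324 CPM. AgoSel1 stood at 296 CPM and AgoSel2 at 86.0 CPM (65.7 to 111), which is the same order of these labels as for Tnfsf11. gdT cells stood at 87.8 CPM and B+myeloid at 120 CPM.

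**Figure D1:**
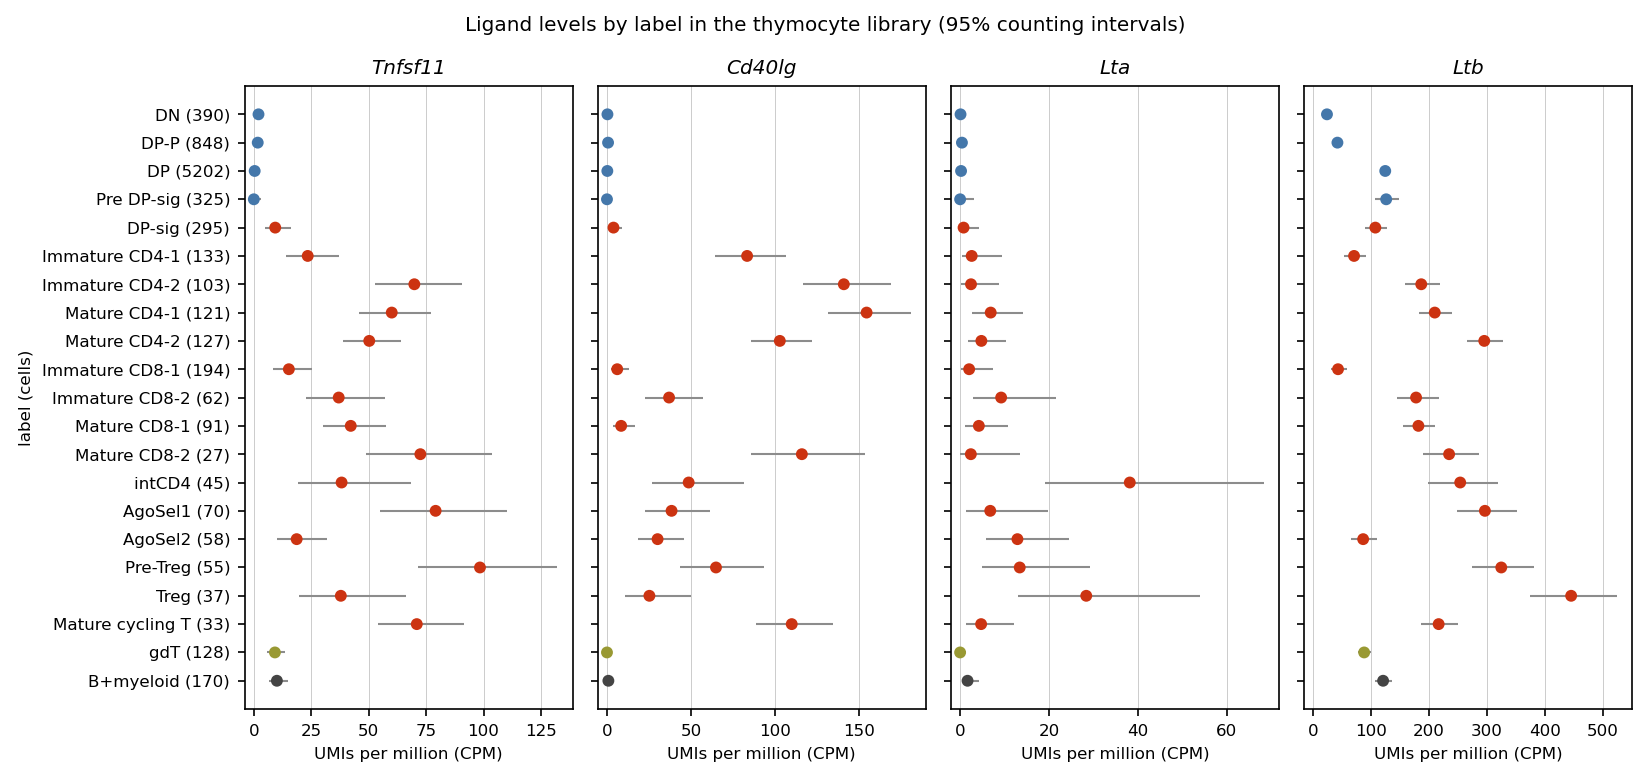
Level in CPM (x axis, UMIs per 1000000 UMIs) of Tnfsf11, Cd40lg, Lta and Ltb in each thymocyte label of at least 20 cells (y axis, cell number in parentheses). Points are sums over cells, lines are 95% counting intervals, blue marks labels up to Pre DP-sig, red marks selected labels, olive gdT cells and black B+myeloid. Cd40lg peaks in Mature CD4-1 at 155 CPM, Tnfsf11 in Pre-Treg at 98.4 CPM, and Ltb is present in all labels with its peak in Treg at 445 CPM.

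The second comparison set CD4 against CD8 lineage labels, 484 cells of the 4 CD4 labels and 374 cells of the 4 CD8 labels. Cd40lg was higher in the CD4 lineage, at 121 CPM (465 UMIs) against 28.4 CPM (82 UMIs), a ratio of 4.25 (3.35 to 5.44). Tnfsf11 differed less, at 51.6 CPM against 36.4 CPM, a ratio of 1.42 (1.12 to 1.82), an interval above 1. Ltb had a ratio of 1.45 (1.29 to 1.64) and Lta one of 1.06 (0.478 to 2.44) on 17 and 12 UMIs. Past the fold upward was 1 of the 4, against 2.15% of the 10254 genes tested, and 0 downward, against 1.91%. Without Mature CD8-2, an alternative chosen after seeing the data, the ratio was 8.78 for Cd40lg, 1.70 for Tnfsf11, 1.63 for Ltb and 0.992 for Lta.

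The coreceptor genes were read in the same cells, with Cd4 added to the lists after the values were seen. Mature CD8-2 carried 188 CPM of Cd4 and 213 CPM of Cd8a and Cd8b together, whereas Mature CD8-1 carried 67.5 CPM and 817 CPM. Of the CD4 labels, Mature CD4-2 carried more Cd8 (523 CPM) than Cd4 (314 CPM), and the other three more Cd4. Of the 27 cells labelled Mature CD8-2, 17 had more Cd4 than Cd8 UMIs, and these held 42 of the 48 Cd40lg UMIs, a level of 175 CPM (126 to 236). The 9 cells with more Cd8 UMIs stood at 32.1 CPM (10.4 to 74.9). Cells of Mature CD8-1 with more Cd8 UMIs stood at 3.75 CPM (0.773 to 10.96), and its 13 cells with more Cd4 UMIs at 39.1 CPM. In Immature CD4-1 and Immature CD4-2 the cells with more Cd8 UMIs stood at 5.91 CPM and 11.05 CPM, against 135 CPM and 185 CPM in the cells with more Cd4 UMIs. Mature CD4-2 differed less by this split, with 131 CPM in 64 cells and 69.7 CPM in 52 cells. Cd40lg was thus higher in the cells with more Cd4 than in those with more Cd8 in each of the 8 labels. Its intervals overlapped in Immature CD8-1 and Immature CD8-2. Cells with equal counts stood above both in Immature CD8-2 (195 CPM, 10 UMIs among 6 cells) and Mature CD4-1 (217 CPM). In the other labels they stood below the cells with more Cd4. Tnfsf11 was also higher with more Cd4 in each label but Immature CD8-2 (21.8 CPM against 37.7 CPM). Its intervals were apart only in Immature CD4-2, at 84.6 CPM (61.5 to 114) against 22.1 CPM (6.02 to 56.6). In Mature CD8-1 Tnfsf11 was 46.9 CPM against 41.3 CPM in the 76 cells with more Cd8. This split uses the cells' own counts and names no lineage.

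**Figure D2:**
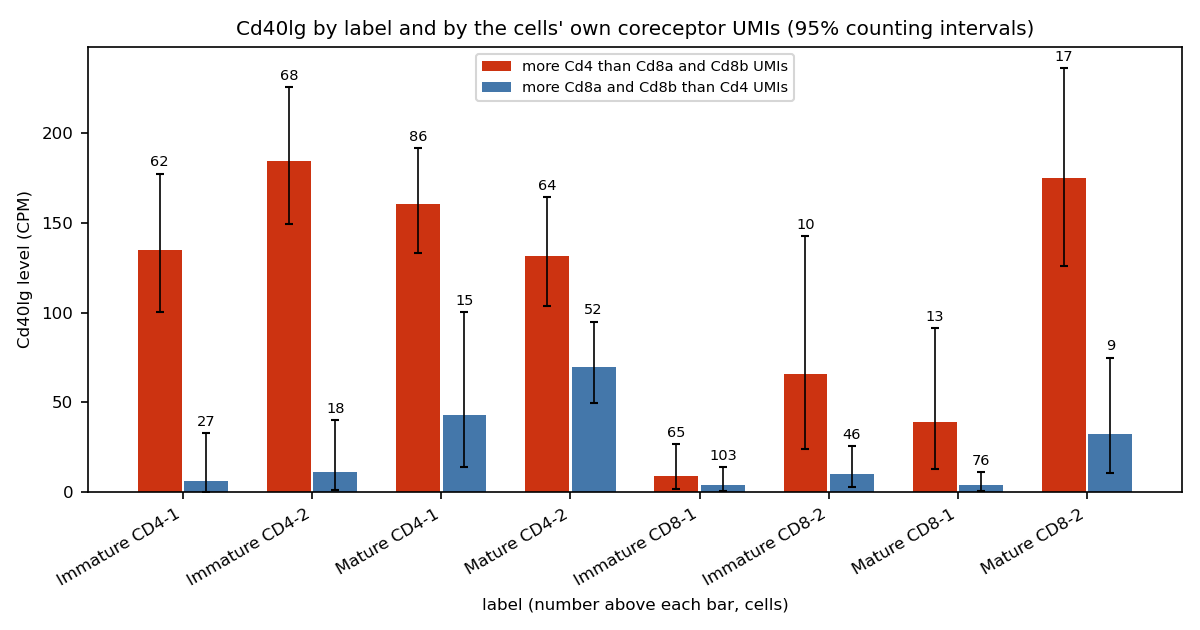
Cd40lg level in CPM (y axis) for each CD4 and CD8 label (x axis), split into cells with more Cd4 than Cd8a and Cd8b UMIs (red) and cells with more Cd8a and Cd8b UMIs (blue), ties left out. Bars start at 0, lines are 95% counting intervals and numbers are cells. In Mature CD8-2 the red bar stands at 175 CPM and the blue bar at 32.1 CPM.

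Cd40lg UMIs were more frequent in cells that also had a Tnfsf11 UMI. In the selected pool, Cd40lg had a UMI in 47.1% of the 255 cells with a Tnfsf11 UMI and 16.3% of the 1215 cells without. Cells with Tnfsf11 were deeper, with a median of 9122 UMIs against 5943. With every cell thinned to 5000 UMIs, which left out 454 shallower cells, the shares were 31.4% (24.2 to 39.3) and 18.7% (16.2 to 21.5). Within the CD4 lineage they were 42.7% (31.3 to 54.6) and 30.8% (25.9 to 35.99) after thinning, with 71 cells left out, and 57.9% and 34.9% before it. The thinned intervals overlapped there.

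Other genes of the family and of its signal relays were read from lists. Of 18 further ligands and receptors of the family, 14 had enough UMIs in the thymocyte pools, and 8 were past the fold upward and 2 downward in selected cells, against 10.6% and 14.2% of all genes tested, so the downward count was at the background share. Those with the largest ratios were Tnfrsf4 (OX40, a costimulatory receptor) at 71.7 (48.3 to 111), Tnfrsf14 (the receptor of LIGHT) at 66.7 (50.5 to 89.8), Tnfrsf1b at 42.0, Faslg at 13.5, Tnfrsf9 at 12.4 and Tnfrsf18 at 11.4. Of 19 relays, 10 were past the fold upward and 0 downward, led by the non-canonical NF-kB subunit gene Relb at 12.4 (10.3 to 14.98), the inhibitor gene Birc3 at 8.37 and Nfkb2 at 7.86, followed by Rel at 5.74, Nfkb1 at 5.61 and Nfkbia at 5.49. The median log2 ratio was 2.26 over the family list and 1.06 over the relays. Between CD4 and CD8 lineages, 0 of 11 family genes tested were past the fold upward and 1 downward, Tnfrsf9 at 0.416 (0.267 to 0.639), and 0 of the 19 relays were past it in either direction, against 2.15% upward and 1.91% downward of all genes tested.

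The third comparison asked which epithelium carried the receptor transcripts. RANK, its decoy and CD40 were all higher in medullary than in cortical epithelium, and Ltbr was not. The pools were 619 cells of mTEC1, mTEC2 and mTEC-prol and 448 cells of cTEC. Tnfrsf11a stood at 100 CPM (870 UMIs) against 5.21 CPM (26 UMIs), a ratio of 19.2 (13.0 to 29.6). Tnfrsf11b stood at 191 CPM against 22.5 CPM, a ratio of 8.53 (7.04 to 10.4), and Cd40 at 103 CPM against 25.3 CPM, a ratio of 4.09 (3.39 to 4.97). Ltbr stood at 59.1 CPM against 74.2 CPM, a ratio of 0.797 (0.696 to 0.914). Past the fold upward were 3 of the 4, against 16.6% of the 14955 genes tested, and 0 downward, against 5.89%. The median log2 ratio was 2.56 over the 4 and 0.06 over all genes tested.

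The small labels mTEC2 (61 cells) and mTEC-prol (76 cells) raised these ratios. Without them, an alternative chosen after seeing the data, the ratio of mTEC1 to cTEC was 9.84 for Tnfrsf11a, 4.02 for Tnfrsf11b and 3.04 for Cd40. Tnfrsf11a was 276 CPM (243 to 314) in mTEC2, 218 CPM (194 to 244) in mTEC-prol and 51.3 CPM (45.9 to 57.1) in mTEC1, each above cTEC at 5.21 CPM and early Pr at 2.72 CPM. A UMI was found in 62.3% of mTEC2 cells (median 13378 UMIs) and in 0.325% of TMC2 fibroblasts (median 8269.5 UMIs). Among the mimetic labels, medullary cells with programmes of other tissues, Tnfrsf11a was 9.33 CPM in goblet, 40.3 CPM in muscle and 32.0 CPM in tuft cells, the muscle value resting on 21 UMIs in 3 of 35 cells. Endothelium formed a further site. vEC stood at 56.7 CPM (49.2 to 65.0), aEC at 52.4 CPM (37.8 to 70.9) and capEC at 47.9 CPM (41.7 to 54.8), which did not differ from each other or from mTEC1 beyond counting error. Fibroblast labels lay between 0.214 CPM and 0.804 CPM.

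Cd40 had the same leading labels. It was 189 CPM (161 to 220) in mTEC2 and 174 CPM (153 to 198) in mTEC-prol, which did not differ beyond counting error, and 76.8 CPM (70.2 to 83.9) in mTEC1. cTEC stood at 25.3 CPM, early Pr at 24.9 CPM and capEC at 20.9 CPM (16.9 to 25.6), while fibroblasts ran from 1.85 CPM in TMC1 to 8.90 CPM in TMC3. A UMI was found in 76.3% of mTEC-prol cells (median 16804.5 UMIs) and in 1.89% of TMC1 cells (median 9749 UMIs). B cells are a known site of CD40, yet the stromal label B cell, with B lineage markers at 1078 CPM and fibroblast markers at 7570 CPM, stood at 8.40 CPM on 24 UMIs. mTEC2 also carried the thymocyte markers at 190 CPM and the myeloid markers at 270 CPM, against 33.3 CPM and 6.42 CPM in cTEC. Whether these UMIs came from other cells or from mTEC2 itself, and their part in its values, was not tested.

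Tnfrsf11b was highest in a fibroblast label. capFb stood at 742 CPM (729 to 755, 11991 UMIs), with a UMI in 93.2% of its 1358 cells (median 11378.5 UMIs) against 3.28% of TMC4 cells (median 8717 UMIs). mTEC2 stood at 516 CPM (470 to 566), mTEC-prol at 459 CPM (424 to 497) and mTEC1 at 90.3 CPM (83.1 to 98.0). aaTEC2 stood at 289 CPM and MEC at 173 CPM, and the other fibroblasts ran from 4.41 CPM in TMC4 through 12.7 CPM in TMC2 and 28.1 CPM in TMC3 to 43.8 CPM in TMC1. In several other labels the UMIs sat in few barcodes that also carried fibroblast genes. In the stromal label Thymocyte, 7 of 411 barcodes had 3 or more Tnfrsf11b UMIs, held 78 of the 88 UMIs and carried a median of 492 UMIs of the 5 fibroblast markers, against 2 in the others. The same held for cTEC (6 barcodes, 93 of 112 UMIs, medians 649 and 2) and vEC (8 barcodes, 76 of 88 UMIs, medians 646.5 and 2). In aaTEC2, 12 of the 29 barcodes held 151 of 158 UMIs and carried a median of 673 fibroblast-marker UMIs, against 351 in the others. The medullary labels differed from these. In mTEC1 the 58 barcodes with 3 or more Tnfrsf11b UMIs carried a median of 3.5 fibroblast-marker UMIs against 3 in the others, in mTEC-prol 39 barcodes carried 4 against 3, and in mTEC2 34 barcodes carried 4 against 2.

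Ltbr was the flattest of the receptor genes. TMC2 stood at 118 CPM (114 to 122), TMC3 at 110 CPM, TMC1 at 94.4 CPM, TMC4 at 92.3 CPM (86.9 to 98.0) and capFb at 74.1 CPM. vEC stood at 91.5 CPM, aEC at 91.1 CPM and cTEC at 74.2 CPM. It was lowest in Myeloid at 22.2 CPM and mTEC2 at 25.1 CPM, and the medullary labels ran from 66.5 CPM in mTEC1 through 46.1 CPM in mTEC-prol to mTEC2, the reverse of their order for Tnfrsf11a.

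**Figure D3:**
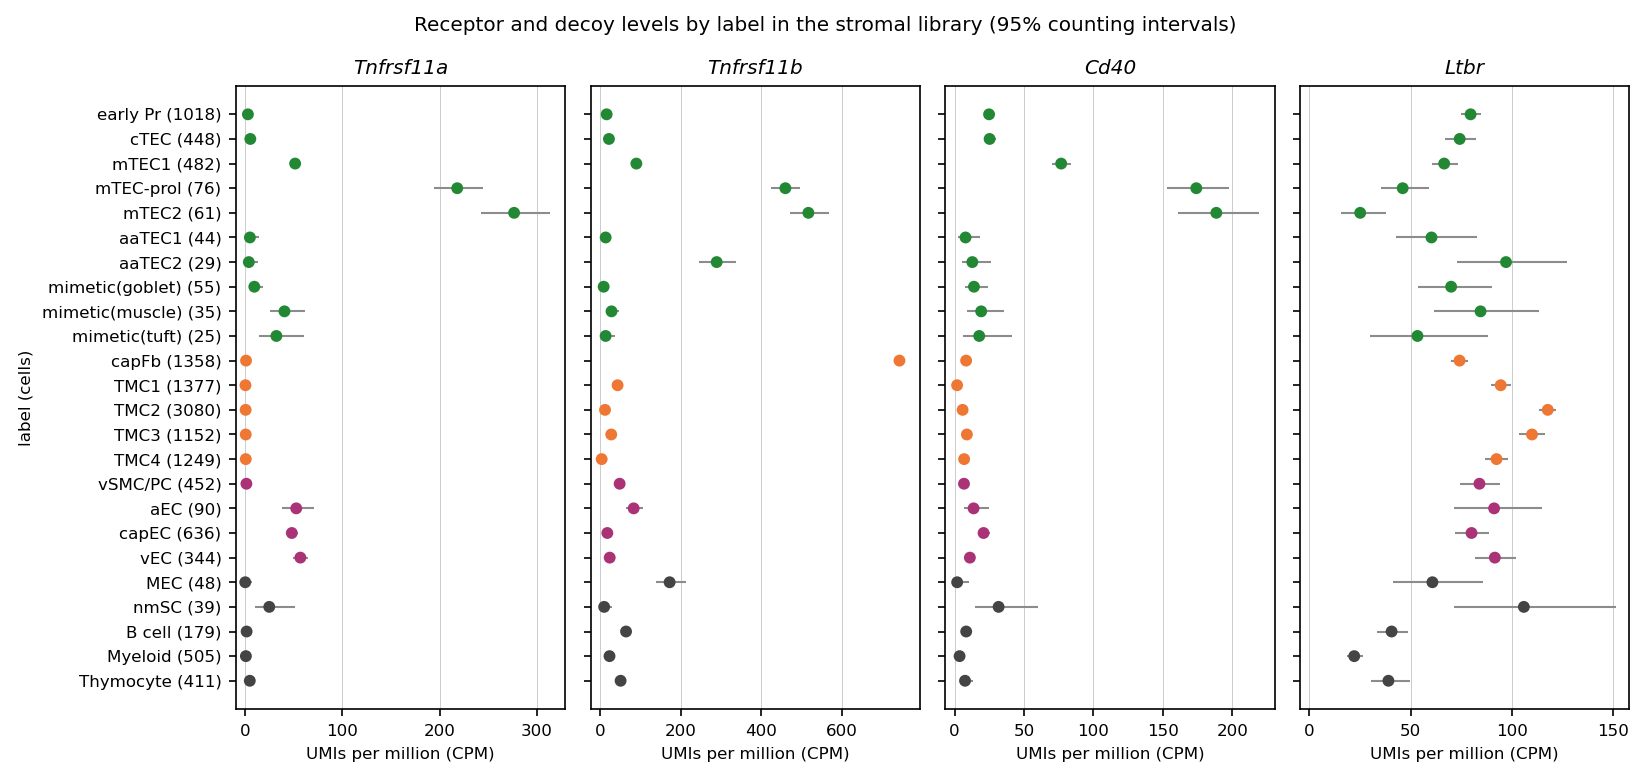
Level in CPM (x axis) of Tnfrsf11a, Tnfrsf11b, Cd40 and Ltbr in each stromal label of at least 20 cells (y axis, cell number in parentheses), with 95% counting intervals. Green marks epithelium, orange fibroblasts, purple endothelium and vSMC/PC, and black the other labels. Tnfrsf11a and Cd40 peak in mTEC2 (276 CPM and 189 CPM), Tnfrsf11b in capFb (742 CPM), and Ltbr is spread over all labels.

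Within medullary epithelium, UMIs of Cd40 and of the decoy gene were more frequent in cells that also had a Tnfrsf11a UMI. Overlap of Cd40 with the decoy gene was not examined. Cd40 had a UMI in 73.7% of the 247 cells with Tnfrsf11a and in 32.0% of the 372 without, and cells with Tnfrsf11a were deeper (medians 17194 and 10528 UMIs). After thinning to 5000 UMIs, with 92 cells left out, the shares for Cd40 were 49.6% (40.8 to 58.5) and 24.5% (20.3 to 29.0). For Tnfrsf11b they were 45.8% (37.1 to 54.7) and 21.7% (17.8 to 26.1) after thinning, and 66.8% and 20.2% before. In mTEC1 alone, with 72 cells left out, the thinned shares were 41.6% against 18.3% for Cd40 and 29.9% (19.97 to 41.4) against 15.02% (11.4 to 19.3) for Tnfrsf11b, and 69.5% against 30.2% and 54.5% against 16.8% unthinned. Ltbr showed no such difference at equal depth, with 22.1% (15.4 to 30.2) and 28.5% (24.1 to 33.3), against 56.7% and 46.2% unthinned. A receptor for RANK ligand and its soluble decoy were thus read from the same medullary cells.

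Genes known from mouse work to depend on these receptors were also read. Of 11 such genes, 10 were tested between medullary and cortical epithelium and 8 were past the fold upward, against 16.6% of all genes tested. The list includes Tnfrsf11a itself, and Aire and Fezf2 are also among the medullary markers summed above, so these genes are no separate evidence. Aire, the medullary regulator of self-antigen expression, stood at 70.8 CPM against 0.201 CPM, the cortical value being 1 UMI, so that the ratio of 353 had an interval from 63.1 to 13965. Fezf2, a second such regulator, had a ratio of 167 (57.1 to 813) on 3 cortical UMIs, Ccl21, a chemokine that attracts selected thymocytes, one of 26.4, Spib one of 16.2 and Ccl19 one of 11.9. Of 14 family genes tested, 9 were past the fold upward, led by Cd70 at 38.1 (14.7 to 141), Tnfrsf9 at 35.2 (18.4 to 77.4) and Tnf at 18.8 (7.18 to 70.1), each on fewer than 10 cortical UMIs. Of the 19 relays, 5 were past it upward, not far above the share over all genes, and 0 downward, namely Traf1 at 3.84, Nfkbie at 3.65, Birc3 at 3.13, Nfkb2 at 2.94 and Relb at 2.20 (1.93 to 2.52). The median log2 ratio was 3.80 over the dependent genes, 1.62 over the family list and 0.78 over the relays.

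The fourth comparison set the 8216 fibroblasts against the 2304 epithelial cells. The epithelial pool held every epithelial label, with early Pr, aaTEC and mimetic labels beside cTEC and mTEC. Within it aaTEC2, which also carried fibroblast markers, held 158 of the 2207 Tnfrsf11b UMIs. RANK and CD40 were lower in fibroblasts, with ratios of 0.0137 (0.00960 to 0.0190) for Tnfrsf11a and 0.131 (0.118 to 0.145) for Cd40. Ltbr was 99.8 CPM in fibroblasts and 71.7 CPM in epithelium, a ratio of 1.39 (1.33 to 1.46). Tnfrsf11b was 168 CPM against 76.2 CPM, a ratio of 2.21 (2.11 to 2.31) that came from capFb, since without that label the ratio was 0.272, the other direction. Past the fold upward was 1 of the 4, against 15.4% of the 18940 genes tested, and 2 were past it downward, against 24.1%. Of 17 family genes tested, 3 were past it upward, with Tnfsf13b (BAFF, a B cell survival factor) at 7.77 and Tnfsf18 at 7.31, and 7 downward, with Tnfrsf18 at 0.0229 and Cd70 at 0.159. Of the 19 relays, 0 were past it upward and 3 downward, which were Rel at 0.236, Nfkb1 at 0.390 and Nfkbie at 0.464. Of the 10 dependent genes tested, 2 were past it upward and 5 downward, among them Fezf2 at 0.0113 and Vcam1 at 2.82.

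In stroma Tnfsf11 was concentrated in 1 fibroblast label, TMC4, which differed from the others in the RANK ligand gene and in the decoy gene. TMC4 stood at 16.1 CPM (13.9 to 18.6) on 186 UMIs in 94 of 1249 cells, with up to 14 in a cell, and the other 6967 fibroblasts at 0.489 CPM on 33 UMIs, a ratio of 32.9 (22.6 to 49.2). A UMI was found in 7.53% of TMC4 cells (median 8717 UMIs) and in 0.0649% of TMC2 cells (median 8269.5 UMIs). TMC3 stood at 2.46 CPM (1.61 to 3.61) on 26 UMIs and vSMC/PC at 5.04 CPM on 17 UMIs in 7 cells. The stromal labels Thymocyte and B cell stood at 5.25 CPM on 9 UMIs and 3.85 CPM on 11 UMIs. Among epithelial labels, early Pr, cTEC and mTEC1 stood at 0.0824 CPM, 0.201 CPM and 0.466 CPM, and mimetic(muscle) at 1.92 CPM on 1 UMI. The other epithelial labels of at least 20 cells had no UMI. The decoy gene Tnfrsf11b ran the other way, at 4.41 CPM in TMC4 and 196 CPM in the other fibroblasts, a ratio of 0.0225 (0.0167 to 0.0296), and 0.181 without capFb. Past the fold were 1 of the 6 members tested upward, against 12.7% of the 16857 genes tested, and 1 downward, against 13.2%. Both counts were thus near the background share.

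None of the remaining members tested was past the fold between TMC4 and the other fibroblasts. The ratio was 1.65 (1.198 to 2.23) for Ltb, an interval above 1, and it was 1.14 (0.885 to 1.45) for Cd40, 1.13 (0.385 to 2.75) for Tnfrsf11a and 0.913 (0.855 to 0.974) for Ltbr. Cd40lg had 1 UMI in TMC4 and 2 in the other fibroblasts, and Lta had 0 in both. The thymocyte markers summed to 8.48 CPM in TMC4 and to between 7.73 CPM and 11.6 CPM in the other fibroblast labels. TMC4 held 1898 Tnfsf11 UMIs per 1000 thymocyte-marker UMIs, the stromal label Thymocyte 0.743, and labels of the thymocyte library from 0 in Pre DP-sig to 19.2 in Pre-Treg. The part of thymocyte RNA in the TMC4 value was not tested beyond these values. Within TMC4 a UMI of Ltb was found in 2 of the 94 cells with Tnfsf11 and 47 of the 1155 without.

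Some dependent genes and relays were also higher in TMC4. Of 10 dependent genes tested, 6 were past the fold upward, against 12.7% of all genes tested, with Ccl21 at 22085 CPM and 30.1 times the other fibroblasts, Ccl19 at 20.7 times, Spib at 10.5 times, Icam1 at 3.07 times and Vcam1 at 2.85 times, and 1 downward, against 13.2%, the B cell chemokine gene Cxcl13 at 0.0489 times. Of the 19 relays, 10 were past it upward and 0 downward, led by Birc3 at 6.18 (5.82 to 6.56), Tnfaip3 at 5.16, Traf1 at 4.58 and Traf3 at 4.14, followed by Nfkbie at 3.95 and Nfkb2 at 3.81. Of 14 family genes tested, 3 were past it upward and 3 downward, not far from these shares, with Tnfrsf14, a receptor that shares the ligand LIGHT with Ltbr, at 15.2 (12.3 to 18.8), Tnfrsf1b at 3.72 and Cd70 at 0.0482 (0.00121 to 0.274) on 1 UMI. The median log2 ratio was 1.56 over the dependent genes, 1.06 over the relays, -0.34 over the family list and 0.07 over all genes tested.

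**Figure D4:**
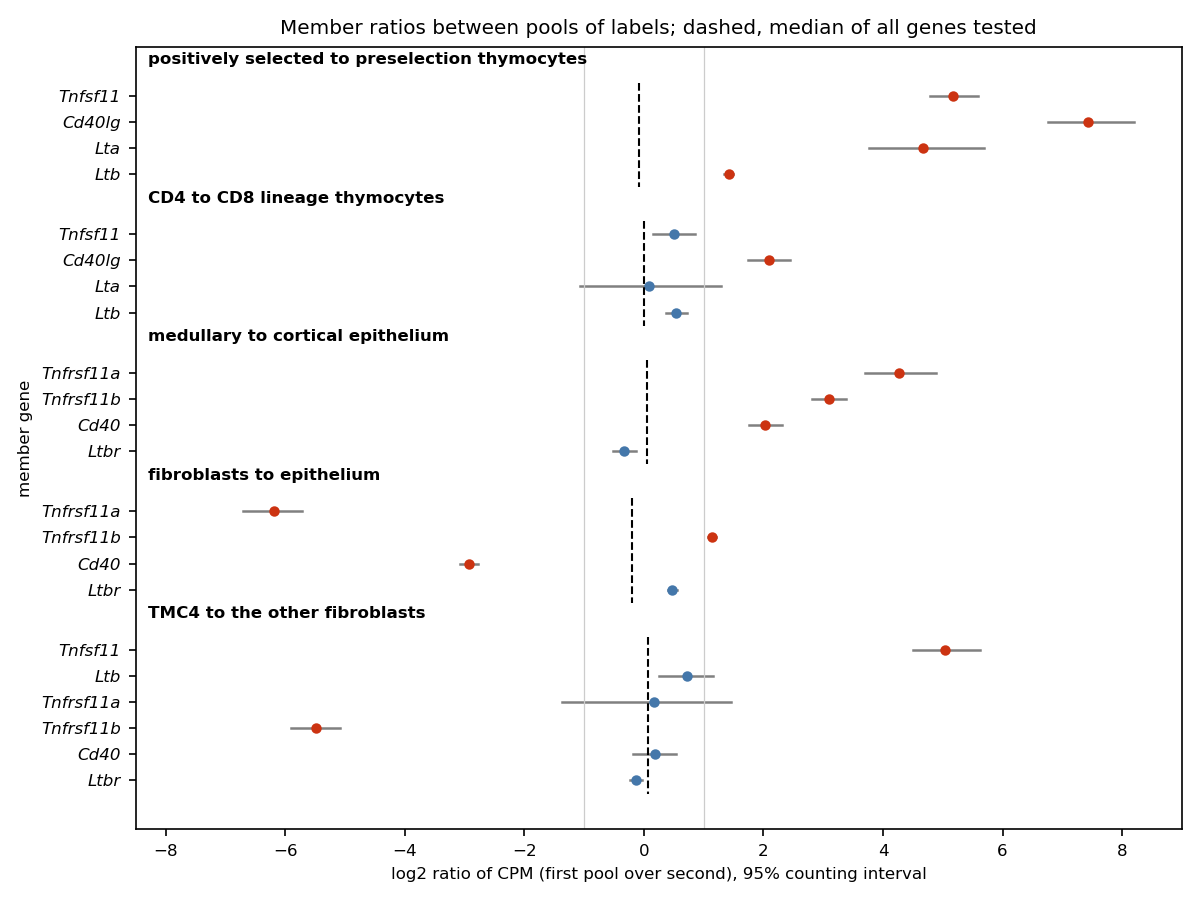
Ratio of CPM between pools of labels on a log2 axis (x) for the members in each of the 5 comparisons (y axis), with 95% counting intervals. Red points are past 2-fold in either direction, blue points are not, grey lines mark 2-fold and dashed lines the median of all genes tested. Cd40lg in selected thymocytes lies farthest right and Tnfrsf11a in fibroblasts farthest left.

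Ltb, best known from lymphocytes, was also read from epithelium. mTEC-prol stood at 127 CPM (108 to 147), mTEC1 at 55.5 CPM (49.9 to 61.6), mTEC2 at 30.8 CPM, early Pr at 24.8 CPM (22.1 to 27.8) and cTEC at 16.0 CPM, against 2.08 to 4.76 CPM in fibroblasts and 89.2 CPM in the stromal label Thymocyte. Of the 173 UMIs in mTEC-prol, 83 came from 1 cell. The 10 cells with the most Ltb held 111 of 301 UMIs in early Pr, 46 of 80 in cTEC and 120 of 357 in mTEC1. Thymocyte RNA was checked through the 10 thymocyte markers. The stromal label Thymocyte held 12.6 Ltb UMIs per 1000 marker UMIs, and the thymocyte library between 3.76 in DN and 91.4 in Treg. mTEC1 held 1378 per 1000, mTEC-prol 2836, early Pr 1338, cTEC 482 and mTEC2 163. TMC4 held 561 and capEC 442, so this measure did not set cTEC apart from them. In the 381 mTEC1 cells with no marker UMI, Ltb was 48.0 CPM (42.1 to 54.6), with a UMI in 26.2% of cells. In the 53 such mTEC-prol cells it was 75.4 CPM (58.8 to 95.3), in the 872 early Pr cells 23.4 CPM and in the 375 cTEC cells 17.7 CPM. The 560 such capEC cells stood at 14.2 CPM (10.6 to 18.6). In mTEC2 only 21 cells had no marker UMI, and they held 2 Ltb UMIs, a level of 8.52 CPM (1.03 to 30.8). The source of the marker UMIs in mTEC2 was not tested.

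**Figure D5:**
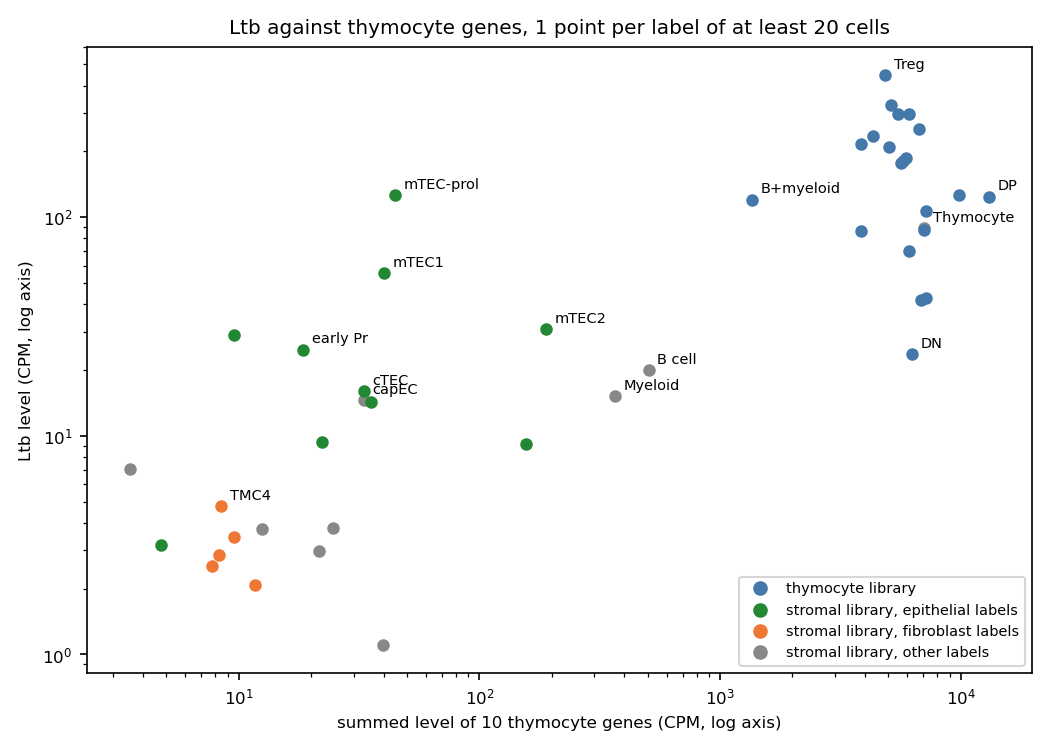
Ltb level (y axis, CPM, log axis) against the summed level of the 10 thymocyte markers (x axis, CPM, log axis), 1 point per label of at least 20 cells. Blue points are thymocyte-library labels, green epithelial, orange fibroblast and grey other stromal labels. mTEC1 and mTEC-prol lie at 55.5 CPM and 127 CPM of Ltb with 40.3 CPM and 44.6 CPM of the markers, far left of the thymocyte labels.

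Cd40lg had a small second site in the stromal library. The label Myeloid held 79 of its 92 UMIs there, at 13.1 CPM (10.4 to 16.3), in 62 of 505 cells. Of these cells 50 had 1 UMI, 7 had 2 and 5 had 3. The label also carried 2220 UMIs of the 10 thymocyte markers, of which 1542 were Ptprc, a gene of blood-derived cells in general. It held 35.6 Cd40lg UMIs per 1000 marker UMIs, against 30.6 in Mature CD4-1, the highest of the thymocyte library, and 0.825 in the stromal label Thymocyte. With Ptprc as most of its marker UMIs, the Myeloid value is not a ratio to thymocyte RNA alone. Without Ptprc, 678 marker UMIs remained beside the 79 of Cd40lg. In the 86 cells with no marker UMI, Cd40lg was 12.9 CPM (4.75 to 28.2) on 6 UMIs in 5 cells. In the 337 cells with no marker UMI other than Ptprc, a split chosen after the values were seen, it was 19.4 CPM (14.7 to 25.1) on 57 UMIs in 45 cells. Of the T cell genes, Cd3d, Cd4 and Lat had no UMI in any of the 62 cells, which allows a share of up to 4.84% at 3 cells. Cd3e was found in 14.5% of them against 11.1% of the 443 other cells, Cd3g in 16.1% against 25.5% and Lck in 3.23% against 0.677%. Ltb was found in 29.0% (18.2 to 41.9) against 9.26% (6.72 to 12.3). Among granulocyte genes, chosen after the values were seen, Camp was found in 91.9% against 66.8% and S100a8 in 93.5% against 79.5%, and Ptprc in 91.9% against 74.0%. The macrophage genes Csf1r and Cd68 were found in 4.84% against 12.6% and in 14.5% against 20.5%. The cells with Cd40lg were deeper, at a median of 11948.5 UMIs against 8876, and the part of depth in these shares was not tested.

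In the thymocyte library B+myeloid, a label of 170 cells, held nearly all UMIs of Tnfrsf11a and Cd40 and 68 of the 144 of Ltbr. There Cd40 stood at 44.3 CPM (36.3 to 53.6), Ltbr at 28.4 CPM, Tnfrsf11a at 23.0 CPM (17.3 to 29.95) and Tnfrsf11b at 3.77 CPM on 9 UMIs. Tnfrsf11a had 1 UMI in all other labels together, and Cd40 had 3. Ltbr was also found in gdT cells at 9.55 CPM (6.24 to 14.0) and DN at 2.86 CPM (1.94 to 4.06). B+myeloid also carried the epithelial markers at 206 CPM and the fibroblast markers at 1030 CPM, and their part in these levels was not tested.

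The genes with the most similar pattern over labels of at least 50 cells were named for each member by Pearson's r of log2(CPM + 1), as a description over labels that share a library. Over 18 stromal labels these were Wipf3 (0.96), Smpdl3b and Irx3 for Tnfrsf11a, Gbp4 (0.94), Ccl5 and S100a14 for Cd40, Metrnl (0.93), Synpr and Pak3 for Tnfrsf11b, Zfyve16 (0.94), Zfp442 and Lats2 for Ltbr, and Tnn (0.88), B3galnt2 and Slc22a3 for Tnfsf11. Over 17 thymocyte labels they were Cd96 (0.95), Pmepa1 and Irf1 for Tnfsf11, Resp18 (0.91), Slc4a4 and Tnfrsf4 for Cd40lg, and Cyld (0.89), Gbp6-ps3 and Sypl1 for Ltb. Tnfrsf4 and Cyld are thus named by their pattern as well as by the lists. Lta had too few UMIs for this measure.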

How the data were processed

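The members and gene lists were chosen with earlier results of these data known. Droplet libraries of thymocytes and CD45-depleted stroma (1 sample each) were measured. The deposited values are UMI counts per gene and barcode, made by the authors with Cell Ranger 8.0.0 and annotated with Seurat 5.3.0 against the build mRatBN7.2, per the submitters' processing notes. The deposited cell table was used for labels, taking the projected label where given and the initial cluster otherwise, and for the deposited total count per cell, which matched the matrix in every annotated cell.

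Counts were summed per label or pool and divided by the summed UMIs (CPM). Ratios have intervals from the exact binomial split of UMIs, and a pool with 0 UMIs was set at 3. A gene was tested on at least 20 UMIs over both pools and counted as past the fold at 2. The selected pool also held Mature cycling T, NKT, intCD4 and Early SP, and the preselection pool DP1 and DP2. Pre DP-sig, gdT and B+myeloid entered neither. The CD4 pool left out intCD4. With 1 sample per group no test was possible.

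Named genes were the 8 members, the 3 genes most like each in pattern among genes of at least 100 UMIs, and at most 6 per list and comparison with the largest ratios on at least 50 UMIs. The lists were other family ligands and receptors, signal relays, dependent genes, and markers of 10 cell types. Trdc was not among the features, and Klrb1 was at 0 in most labels, so the markers of innate lymphoid cells were not used as a check. Alternatives were totals without 155 mitochondrial, ribosomal protein and haemoglobin genes, the mean of cells' CPM, cells thinned to 1000 UMIs (83 stromal and 51 thymocyte-library cells were shallower), cells of at least 1000 UMIs, cells up to the 99th percentile of their label, initial clusters, and stromal cells with fewer than 3 thymocyte-marker UMIs. Other pools were added after seeing the data. Thinning used seed 7. Doublets were neither called nor removed here. The ratio and its call were checked on simulated counts drawn independently for each gene. Clustering of UMIs within cells was not simulated, so the check does not cover it. The tools were pandas 2.3.3, NumPy 2.4.6, matplotlib 3.10.9 and SciPy 1.17.1 under Python 3.11.15.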

Additional observations from a re-analysis of the deposited data

Results flagged for a closer look

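The 2934 stromal barcodes without an annotation entered no comparison, and 7 of the 8 genes had UMIs there above the 3 that a count of 0 allows. Tnfrsf11a had 405 UMIs in 140 of them, a level of 46.7 CPM (42.3 to 51.5) against 11.5 CPM in annotated cells. Cd40 had 259 UMIs, 29.9 CPM against 15.9 CPM. Tnfrsf11b had 878 UMIs (101 CPM against 125 CPM), Ltbr 405 (46.7 CPM against 86.5 CPM) and Ltb 119 (13.7 CPM against 12.3 CPM). Tnfsf11 had 8 (0.923 CPM against 2.04 CPM), Cd40lg 4 (0.462 CPM against 0.699 CPM) and Lta 0. Of the Tnfrsf11a UMIs, 186 came from 67 barcodes with more genes than any annotated cell, 204 from 828 barcodes between the limits and 15 from 2039 barcodes with at most 500 genes.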

How the results depend on the processing

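No paired analysis was possible because there was 1 sample per library and none to pair. Of 170 recomputed ratios, 132 stayed within the counting interval of the value reported, 37 moved outside it and 1 changed direction, and the cause was not tested. Of 20 recomputed counts of members past the fold, 19 were within 1.5 times the count reported, among them changes from 4 to 3 and from 3 to 2 at a fold of 3. Without capFb the ratio of fibroblasts to epithelium for Tnfrsf11b turned to 0.272 and that for Ltbr was 1.48, and the ratio of TMC4 to the other fibroblasts was 0.181 for Tnfrsf11b and 0.842 for Ltbr. Between selected and preselection thymocytes, Tnfsf11 ran to 81.5 with the mean of cells' CPM, 205 thinned, 15.5 by initial cluster and 121 against DP alone, Cd40lg to 405, 92.7, 29.2 and 314, and Ltb to 1.57, 1.54, 2.41 and 1.53, and to 2.87 without the mitochondrial, ribosomal protein and haemoglobin genes. The thinned count of ligand genes past the fold was 2. Between CD4 and CD8 lineages the mean of cells' CPM gave 1.83 for Tnfsf11, 5.88 for Cd40lg and 1.69 for Ltb, and Cd40lg was 3.09 thinned and 8.78 without Mature CD8-2. Between medullary and cortical epithelium Tnfrsf11b was 11.5 by the mean of cells and 11.2 thinned, Ltbr was 0.980 thinned, and without mTEC2 and mTEC-prol the ratios were 9.84 (Tnfrsf11a), 4.02 (Tnfrsf11b) and 3.04 (Cd40). Thinned, no Tnfrsf11a UMI was left in cTEC, a ratio of at least 15.5. Between fibroblasts and epithelium Tnfrsf11b was 2.08 without the named gene classes, 2.59 by the mean of cells, 2.77 thinned, 2.32 without the deepest cells and 2.43 without cells with thymocyte UMIs, Cd40 was 0.148 by the mean of cells, and Ltbr was 1.31 without the gene classes and 1.195 thinned. Between TMC4 and the other fibroblasts, thinning gave 52.9 for Tnfsf11 and 0.00956 for Tnfrsf11b. Initial clusters could not form the CD4, CD8, medullary and cortical pools. Depth limits Lta, with 89 UMIs in thymocytes and 3 in stroma, and the labels of under 60 cells.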
